A study of Homo sapiens with 6 samples.

Results

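The vertebrate HOX gene clusters encode miRNAs of 3 families, miR-10, miR-196 and miR-615, and 9 of their mature strands, out of 2588 miRNAs listed for Caco-2 cells, are described here: both arms of miR-10a, miR-10b, miR-196b and miR-615, and miR-196a-5p. A further strand, miR-196a-3p, had 26 counts over all libraries and was not tested. The 9 were chosen by name and place in the genome and not by any measured value. Caco-2 is an established line from a colorectal adenocarcinoma. Small RNA libraries were made from 3 samples of its total RNA (input) and from 3 samples precipitated with an antibody against N7-methylguanosine (m7G-RIP). No cell in either group was treated or genetically altered, and in the study's protocol the RNA is decapped before precipitation, an aliquot of it is kept as the input, and bound RNA is eluted with 7-methyl-GTP. The labels do not say whether replicates came from separate cultures, so the p-values measure the spread between these samples, which may be technical.

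HOX genes encode the transcription factors that set position along the body axis, and each cluster is expressed in the order of its genes. The miRNAs sit at matching places in different clusters: miR-10 lies near the HOX4 genes, miR-196 next to the HOX9 genes, and miR-615 within HOXC5. All 3 families repress messenger RNAs by pairing through the seed, bases 2 to 8 of the mature strand, and HOX transcripts are among the known targets of miR-10 and miR-196. The question put to them here is the one of the experiment itself: which mature miRNAs were recovered by the m7G antibody in larger or smaller proportion than in the input.

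In GRCh38 the miR-10a hairpin lies in the HOXB cluster at chr17:48579838-48579947 on the minus strand, inside an intron of HOXB3 and an exon of the unnamed gene ENSG00000257178. The miR-10b hairpin lies in the HOXD cluster at chr2:176150303-176150412 and is transcribed from the plus strand within an intron of HOXD3. miR-196a-5p has 2 sources, MIR196A1 at chr17:48632490-48632559 (minus strand) in an intron of HOXB7 and MIR196A2 at chr12:53991738-53991847 (plus strand) in an intron of HOXC6. The miR-196b hairpin lies in the HOXA cluster at chr7:27169480-27169563 on the minus strand and overlaps exons of HOXA9 and, on the opposite strand, of HOXA10-AS. The miR-615 hairpin, at chr12:54033950-54034045 on the plus strand, falls in introns of HOXC5 and HOXC4. All 6 hairpins have the same coordinates in RefSeq and in GENCODE release 44.

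The mature strands are shown because the results differ between strands that are close in sequence. They come from RefSeq (GRCh38.p14), which gave 8 of the 9, all but miR-10b-5p, and the capitals mark the seed.
hsa-miR-10a-5p: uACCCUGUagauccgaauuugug
hsa-miR-10a-3p: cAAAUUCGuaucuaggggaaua
hsa-miR-10b-3p: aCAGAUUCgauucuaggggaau
hsa-miR-196a-5p: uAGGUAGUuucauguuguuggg
hsa-miR-196b-5p: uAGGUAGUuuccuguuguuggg
hsa-miR-196b-3p: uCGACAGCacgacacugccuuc
hsa-miR-615-5p: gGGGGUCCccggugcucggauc
hsa-miR-615-3p: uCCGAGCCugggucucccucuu
Only the pair miR-196a-5p and miR-196b-5p shares a seed among these 8 strands. The seed of miR-10b-5p could not be compared with that of miR-10a-5p, or with any other.

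Counts on all miRNAs summed to between 16466178 and 19628046 per input library and between 1654102 and 3105129 per m7G-RIP library, with m7G-RIP replicate 3 the shallowest. The 9 HOX-cluster rows took 0.286% ± 0.0103 (SD, n = 3) of the input counts and 0.577% ± 0.0728 (SD, n = 3) of the m7G-RIP counts. This share is of raw totals, and on the scaled levels used below their sum was 4181 ± 27.6 CPM (SD, n = 3) in the input and 3991 ± 900.0 CPM (SD, n = 3) in m7G-RIP, where replicates 1, 2 and 3 had 4890, 3994 and 3090 CPM and the groups overlapped. Levels are given as CPM, the counts scaled to a common library size after correction by edgeR's TMM factors, and 3 counts then stand for 0.235 to 0.262 CPM in the input and 0.676 to 1.11 CPM in m7G-RIP, a floor for counting error only. Each read is 1 miRNA of 22 or 23 bases for the strands printed above, so CPM values of these strands need no correction for length, but the efficiency with which each is ligated and amplified is unknown. All 8 intestinal and epithelial miRNAs checked were present in the input, from 260.2 CPM for miR-141-3p to 54882 CPM for miR-192-5p. Of 11 miRNAs typical of other cell types, miR-122-5p (liver) had no count in any library, and miR-223-3p (blood), miR-124-3p (neuron) and miR-206 (muscle) had at most 3 counts in each input library. The highest of the 11 in the input were miR-126-3p (endothelium) at 778 CPM and miR-1-3p (muscle) at 644 CPM, followed by miR-143-3p (stroma) at 174 CPM and miR-133a-3p (muscle) at 60.7 CPM. Their part in the results was not tested.

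In the input the most abundant of these miRNAs was miR-10a-5p, with 2753, 2682 and 2748 CPM. It was followed by miR-10b-5p at 712 ± 17.6 CPM (SD, n = 3), miR-615-3p at 397 ± 62.7 CPM and miR-196a-5p at 219 ± 19.1 CPM. miR-196b-5p, at 58.5 to 63.5 CPM, and miR-10a-3p, at 50.3 to 58.4 CPM, were almost level. The rarest were miR-10b-3p, at 4.77 to 6.02 CPM, and miR-615-5p, at 4.36 to 6.03 CPM, whose ranges overlapped. miR-196b-3p was at 0 in all 6 libraries, so that nothing can be said of it beyond the floor. The order was different in m7G-RIP, where miR-196a-5p, at 881 ± 149 CPM (SD, n = 3), stood behind only miR-10a-5p (1984 ± 470 CPM). Below it were miR-615-3p (488 ± 156 CPM) and miR-10b-5p (484 ± 121 CPM), which overlapped each other. miR-196a-5p has 2 loci, and its reads may in part have been counted at both. Its place above miR-615-3p and miR-10b-5p may depend on that.

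**Figure D1:**
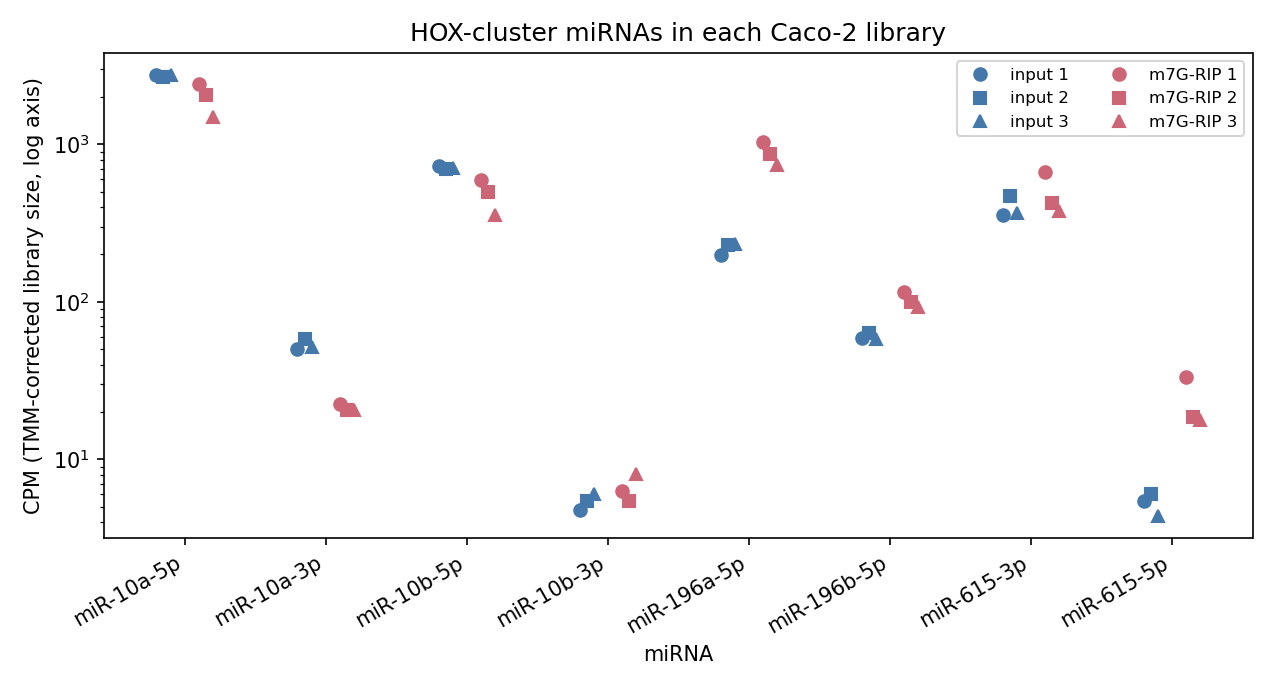
CPM of the 8 HOX-cluster miRNAs with counts in each of 3 input (blue) and 3 m7G-RIP (red) libraries, on a log axis, with 1 point per library. The red points lie above the blue for miR-196a-5p, miR-196b-5p and miR-615-5p, below them for both miR-10 5p arms and miR-10a-3p, and among them for miR-10b-3p and miR-615-3p.

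After precipitation miR-196a-5p, miR-196b-5p and miR-615-5p were enriched, miR-10a-5p, miR-10b-5p and miR-10a-3p were depleted, and miR-10b-3p and miR-615-3p were not called in either direction. All 8 strands with counts were abundant enough to be tested, and 3 of 8 were enriched and 3 of 8 depleted at an adjusted p-value under 0.05, where 40.1% and 38.1% of the 800 miRNAs tested were. The shares among the HOX-cluster miRNAs are thus near those of the whole library. Their median log2 enrichment was 0.28, against 0.16 over all tested miRNAs. The CPM of the groups did not overlap for 3 strands higher and 3 strands lower in m7G-RIP, against 41.4% and 40.8% of all tested miRNAs.

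miR-196a-5p had 2314, 2927 and 2652 counts in the input and 4261, 3875 and 1998 counts in m7G-RIP, which is 197 to 231 CPM against 736 to 1034 CPM. Every m7G-RIP library was far above every input library. Its log2 enrichment was 2.01 (standard error 0.16, edgeR adjusted p = 1.20e-07). miR-196b-5p rose less, from 696, 811 and 670 counts in the input to 473, 446 and 251 counts in the much shallower m7G-RIP libraries, or 58.5 to 63.5 CPM against 92.5 to 115 CPM. The groups did not overlap, and the log2 enrichment was 0.76 (standard error 0.17, edgeR adjusted p = 0.00111).

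Of the 4 miR-10 strands 3 went the other way. miR-10a-5p had 32290, 34238 and 31494 counts in the input and 9949, 9125 and 4025 in m7G-RIP, or 2682 to 2753 CPM against 1483 to 2415 CPM. The groups did not overlap, although m7G-RIP replicate 3 was well below the other 2. The log2 enrichment was -0.46 (standard error 0.17, edgeR adjusted p = 0.0234). miR-10b-5p, with 8583, 8906 and 8104 counts in the input and 2461, 2213 and 969 counts after precipitation, had 698 to 732 CPM and 357 to 597 CPM, again with replicate 3 lowest, and a log2 enrichment of -0.56 (standard error 0.18, edgeR adjusted p = 0.0111). The passenger strand miR-10a-3p fell further, from 590, 745 and 592 counts to 93, 92 and 56 counts. Its 3 m7G-RIP libraries lay close together at 20.6 to 22.6 CPM, and its log2 enrichment was -1.32 (standard error 0.20, edgeR adjusted p = 6.21e-05). miR-10b-3p, with input counts of 56 to 69 and m7G-RIP counts of 22 to 26, had a log2 enrichment of 0.27 with a 95% confidence interval from -0.48 to 1.03 (edgeR adjusted p = 0.478). Without m7G-RIP replicate 3, its highest library, the value was 0.028, and without input replicate 3 it was 0.43.

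Of the miR-615 strands, the abundant 3p arm overlapped between the groups, with 358 to 470 CPM in the input and 375 to 666 CPM in m7G-RIP. Its log2 enrichment was 0.30, with a 95% confidence interval from -0.15 to 0.74 (edgeR adjusted p = 0.199). m7G-RIP replicate 1 was the highest, and without it the value was -0.028. The rare 5p arm had 64, 77 and 50 counts in the input and 137, 83 and 48 counts in m7G-RIP, or 4.36 to 6.03 CPM against 17.7 to 33.3 CPM. All m7G-RIP libraries were above all input libraries, and the log2 enrichment was 2.14 (standard error 0.32, edgeR adjusted p = 5.16e-05), which differs from that of miR-196a-5p by less than this standard error.

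**Figure D2:**
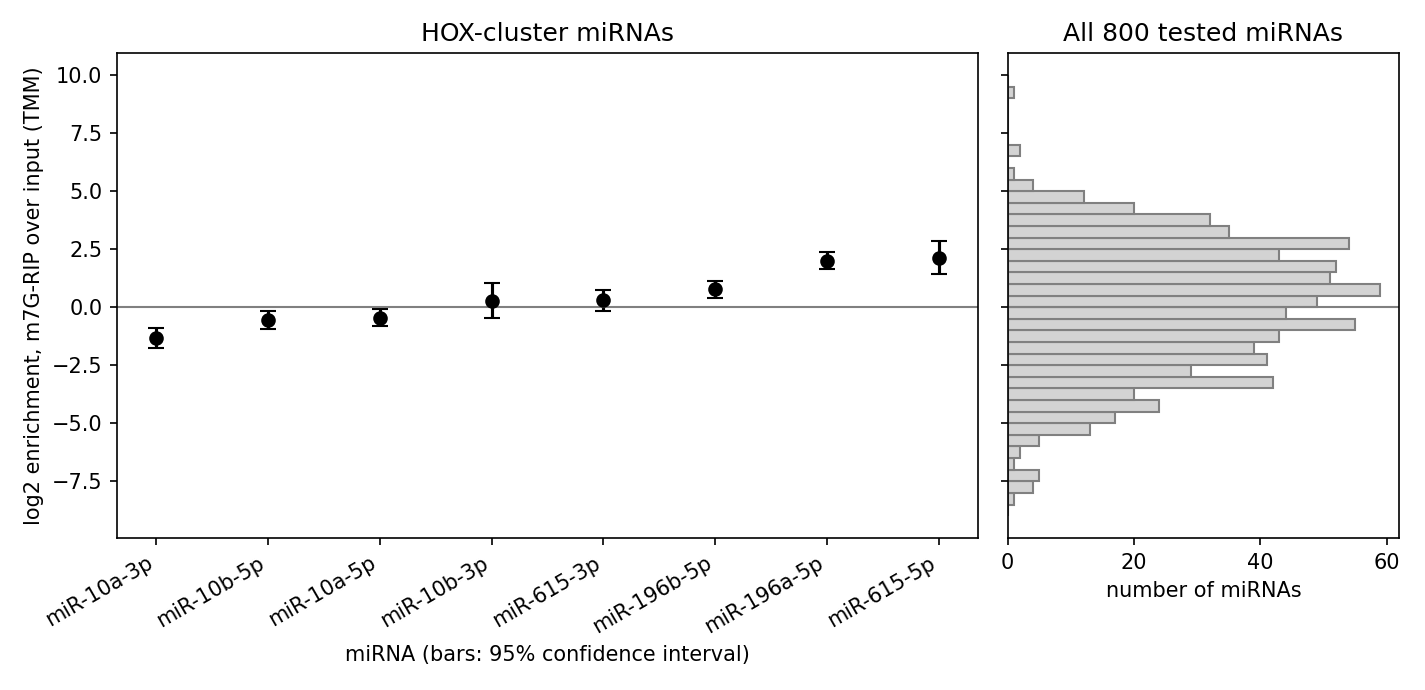
Left, log2 enrichment of m7G-RIP over input under TMM scaling for the 8 tested HOX-cluster miRNAs (points) with 95% confidence intervals from edgeR (bars). Right, the number of miRNAs at each log2 enrichment among all 800 tested. The values run from -1.32 for miR-10a-3p to 2.14 for miR-615-5p, in the middle of the whole range.

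The zero of this scale depends on how the libraries are scaled, and with it the sign of the smaller values. Scaling by total counts alone moved the median of all tested miRNAs up by 1.09 on the log2 scale and the upper-quartile factors by 0.82, while RLE factors moved it down by 0.34. Under total counts miR-10a-5p stood at 0.62 and miR-10b-5p at 0.52, both positive, and the calls among these strands became 7 enriched and 0 depleted. miR-196a-5p, miR-196b-5p and miR-615-5p were enriched under each of the 4 scalings and in the DESeq2 test, whose own size factors moved the median as RLE did. Scaling moves all miRNAs by nearly the same amount, so their order is almost fixed under it. Over these 5 settings 74.3% to 74.5% of tested miRNAs lay below miR-196a-5p and 58.1% to 58.3% below miR-196b-5p. For miR-10a-5p it was 42.9% to 43.3% and for miR-10a-3p 32.4% to 32.8%. Other filters or a library left out also change which miRNAs are tested. There the share ran from 72.2% to 79.5% below miR-196a-5p and from 39.4% to 51.3% below miR-10a-5p. Scaling aside, the depletion call of miR-10a-5p was lost when any 1 of the 3 input libraries was left out, with log2 values of -0.45, -0.46 and -0.38 without replicates 1, 2 and 3, and that of miR-10b-5p when input replicate 3 was left out (-0.49).

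**Figure D3:**
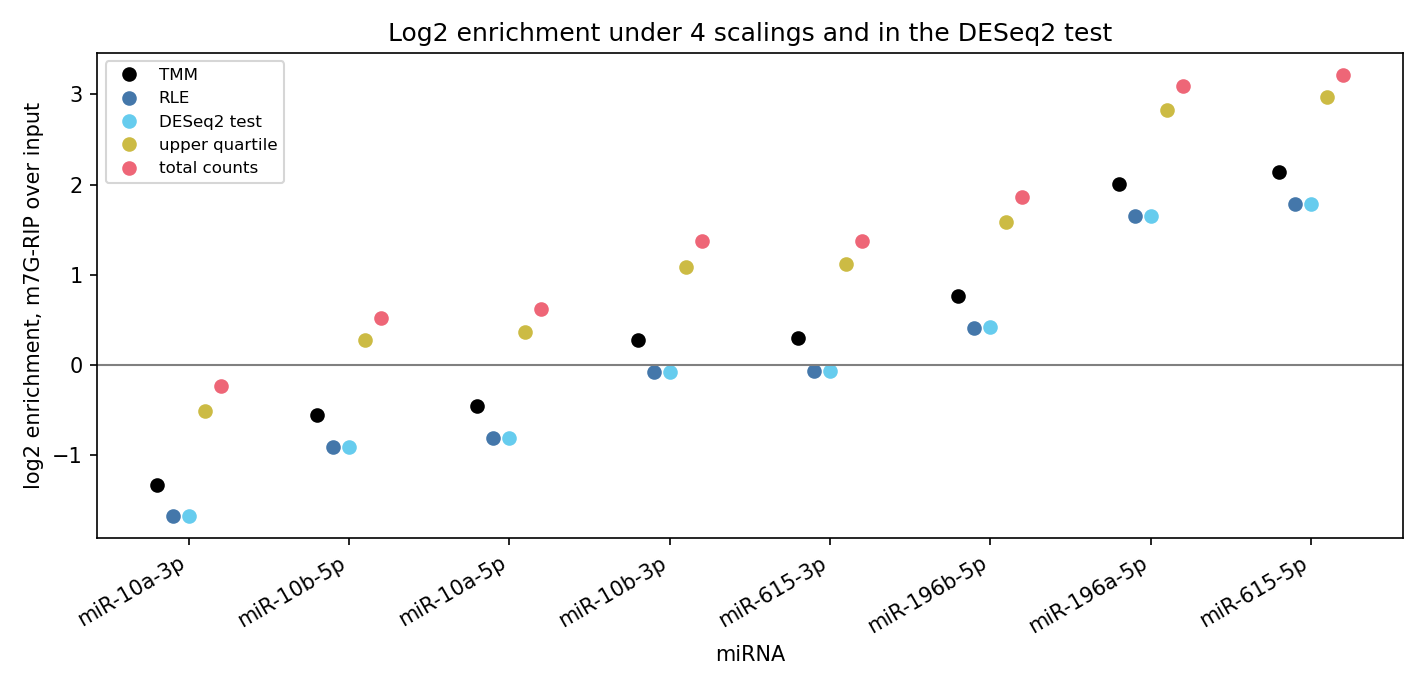
Log2 enrichment of m7G-RIP over input for the 8 tested HOX-cluster miRNAs under 4 scalings of the libraries with edgeR and in the DESeq2 test, 1 colour each, without error bars. All strands move up together under upper-quartile and total-count scaling, so that miR-10a-5p and miR-10b-5p cross 0, while miR-196a-5p, miR-196b-5p and miR-615-5p stay above 0 throughout.

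Ratios between strands read in the same library do not depend on the scaling, and for both arms of a hairpin they compare strands that were transcribed together. The arms of miR-615 were recovered unequally. The rare 5p arm made up 1.5%, 1.27% and 1.18% of the reads of both arms in the input and 4.76%, 4.23% and 4.51% in m7G-RIP, where the 95% Wilson interval of the shallowest library, which covers counting error only, ran from 3.42% to 5.92%. The 5p over 3p ratio rose by 1.82 on the log2 scale (standard error 0.23, limma adjusted p = 0.000483), a factor of 3.54. In the same test over all hairpins with both arms measured, 48.5% of 194 rose and 21.6% fell.

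The arms of miR-10a also changed their ratio, in favour of the 5p arm. There were 46.0 to 54.7 reads of miR-10a-5p for each read of miR-10a-3p in the input, against 71.9 to 107 in m7G-RIP, a rise of 0.83 on the log2 scale (standard error 0.21, limma adjusted p = 0.0109). For miR-10b the ratio was 117 to 153 in the input and 94.7, 92.2 and 44 in m7G-RIP. These groups did not overlap, but the difference of -0.88 on the log2 scale did not pass the test (95% confidence interval from -1.83 to 0.06, limma adjusted p = 0.0863), with only 22 to 26 reads of the 3p arm in each m7G-RIP library.

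Ratios of 5 pairs, of paralogues and of miRNAs from different families, were compared with an exact permutation test, two-sided. With 3 against 3 libraries it cannot give a p-value below 0.1. All 5 reached this smallest value (exact permutation p = 0.1, and 0.1 after adjustment over the 5 pairs). In each of them the groups thus did not overlap. Among all 800 tested miRNAs, the CPM of the groups did not overlap for 41.4% (higher in m7G-RIP) and 40.8% (lower). The share over all pairs of tested miRNAs was not counted, so the 5 of 5 cannot be read as particular to these pairs. The 5 differences varied much in size. miR-10a-5p and miR-10b-5p, from 2 different chromosomes, kept almost the same ratio, which changed by a factor of 1.07. It was 3.76, 3.84 and 3.89 in the input and 4.04, 4.12 and 4.15 in m7G-RIP. Without a sequence of miR-10b-5p, how close these 2 strands are in sequence was not compared. Whether reads of one were counted for the other was not tested. miR-196a-5p to miR-196b-5p went from 3.32, 3.61 and 3.96 to 9.01, 8.69 and 7.96, a factor of 2.36. miR-10a-3p to miR-10b-3p fell from 10.5, 10.8 and 8.58 to 3.58, 3.83 and 2.55.

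Across families the shifts were larger. The ratio of miR-196a-5p to miR-10a-5p, both encoded in the HOXB cluster although miR-196a-5p is also encoded in HOXC, rose from between 0.0717 and 0.0855 (input) to between 0.425 and 0.496 (m7G-RIP), a factor of 5.59. The ratio of miR-196a-5p to miR-615-3p, both encoded in the HOXC cluster, rose by a factor of 3.33. It lay between 0.488 and 0.635 in the input and between 1.55 and 2.06 in m7G-RIP. As counted, the more abundant of these strands in the input was the less abundant in m7G-RIP. Reads of miR-196a-5p may in part have been counted at both of its loci, so this change of order may depend on that.

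**Figure D4:**
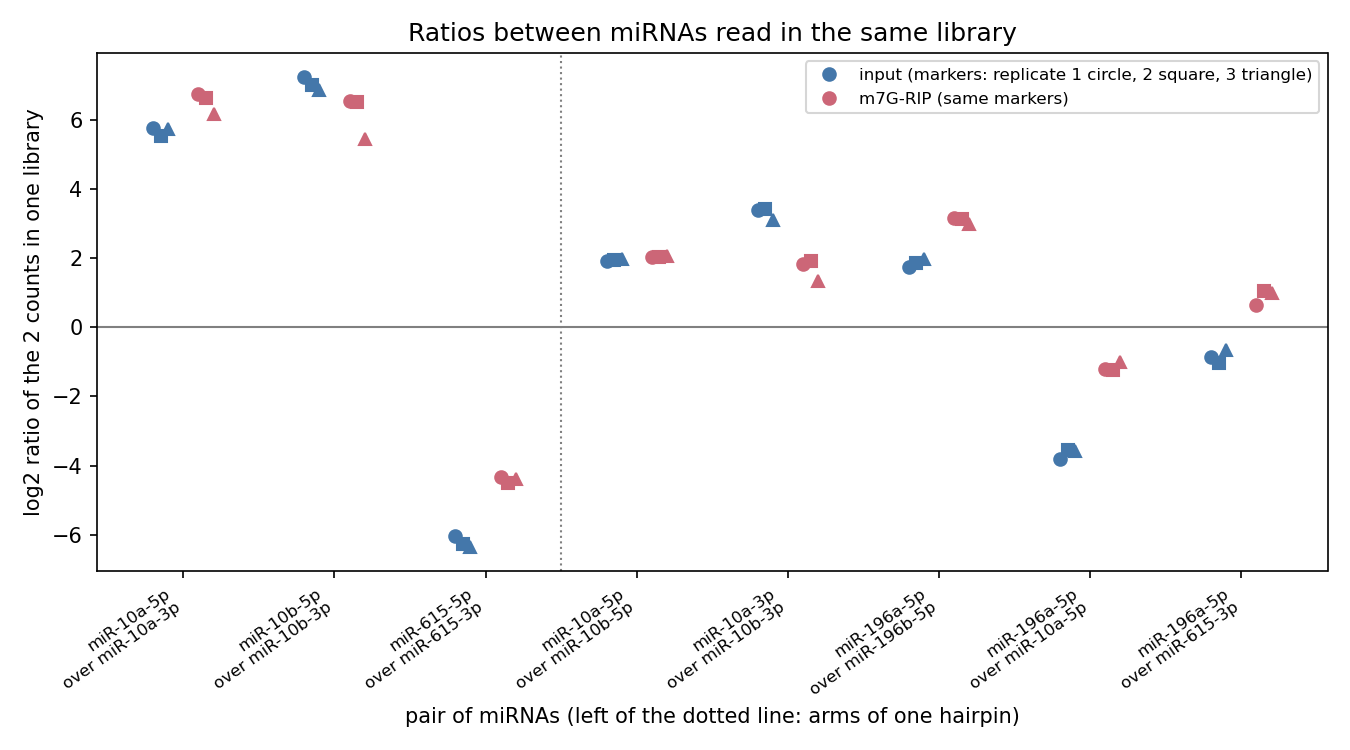
Log2 ratio of the counts of 2 strands within each library, for the arms of 3 hairpins (left of the dotted line) and for 5 pairs of different miRNAs (right), in 3 input (blue) and 3 m7G-RIP (red) libraries, with 1 marker shape per replicate number. The ratio of miR-10a-5p to miR-10b-5p is nearly level between the groups, at 1.94 and 2.04 on average, while miR-196a-5p over miR-10a-5p moves from -3.64 to -1.16.

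miR-196a-5p and miR-196b-5p differ at 1 of 22 bases, A12C counted from the 5′ end of miR-196a-5p, marked in capitals here.
miR-196a-5p: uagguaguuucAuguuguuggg
miR-196b-5p: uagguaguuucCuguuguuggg
All 8 guanosines stand at the same positions in both. Their log2 enrichments differed by 1.24. Tested miRNAs with a mature sequence formed 16 pairs of equal length that differ in 1 base. Among these this was the 7th largest difference, with a median of 1.03 and a range from 0.039 to 4.45. This is a description over pairs that share members and libraries. miR-10b-5p, without a sequence, could not enter any pair, so the pairs are not complete for the HOX-cluster strands. miR-196a-5p has 2 loci with the same mature sequence, and reads that match both may have been counted at each: of the nonzero counts of miRNAs with 2 loci 75.6% were even, against 47.2% for miRNAs with 1 locus. The counts of miR-196a-5p were even in 3 libraries and odd in 3, so not every read was counted double. Its level may be too high by this, and how far the share of double counts differs between input and m7G-RIP was not tested.

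The miR-10 3p arms differ more, and share 11 bases that hold a run of 4 guanosines, in capitals.
miR-10a-3p: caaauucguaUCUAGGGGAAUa
miR-10b-3p: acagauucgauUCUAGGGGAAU
Among tested miRNAs whose longest run of guanosines was 4 bases, 87 in all, the median log2 enrichment was 2.75, and only 5 lay below miR-10a-3p (-1.32) and 13 below miR-10b-3p (0.27).

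The guanosine share of the mature strand went with enrichment across miRNAs. Over 714 tested miRNAs with a mature sequence Pearson's r between guanosine share and log2 enrichment was 0.50 and Spearman's rho 0.50, a description across miRNAs that share libraries and scaling. Of the 7 HOX-cluster strands above with counts and a sequence, the 3 with the most guanosine were the 3 enriched: miR-615-5p with 10 of 22 bases (45.5%), and miR-196a-5p and miR-196b-5p with 8 of 22 (36.4%). miR-10b-3p held 27.3%, miR-10a-3p and miR-615-3p 22.7% and miR-10a-5p 21.7%, against a median of 27.3% over the tested miRNAs. miR-7704, a further HOXD-cluster miRNA with 57.9% guanosine, was not called (log2 enrichment 0.52, edgeR adjusted p = 0.137). Its CPM was nevertheless higher in every m7G-RIP library than in every input library. Among the 22 tested miRNAs with a run of 5 or more guanosines, which include miR-615-5p, the median was 3.70 and 3 lay below miR-615-5p. Equal shares did not give equal values, as miR-196a-5p and miR-196b-5p show, and so do miR-10a-3p and miR-615-3p at -1.32 and 0.30.

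**Figure D5:**
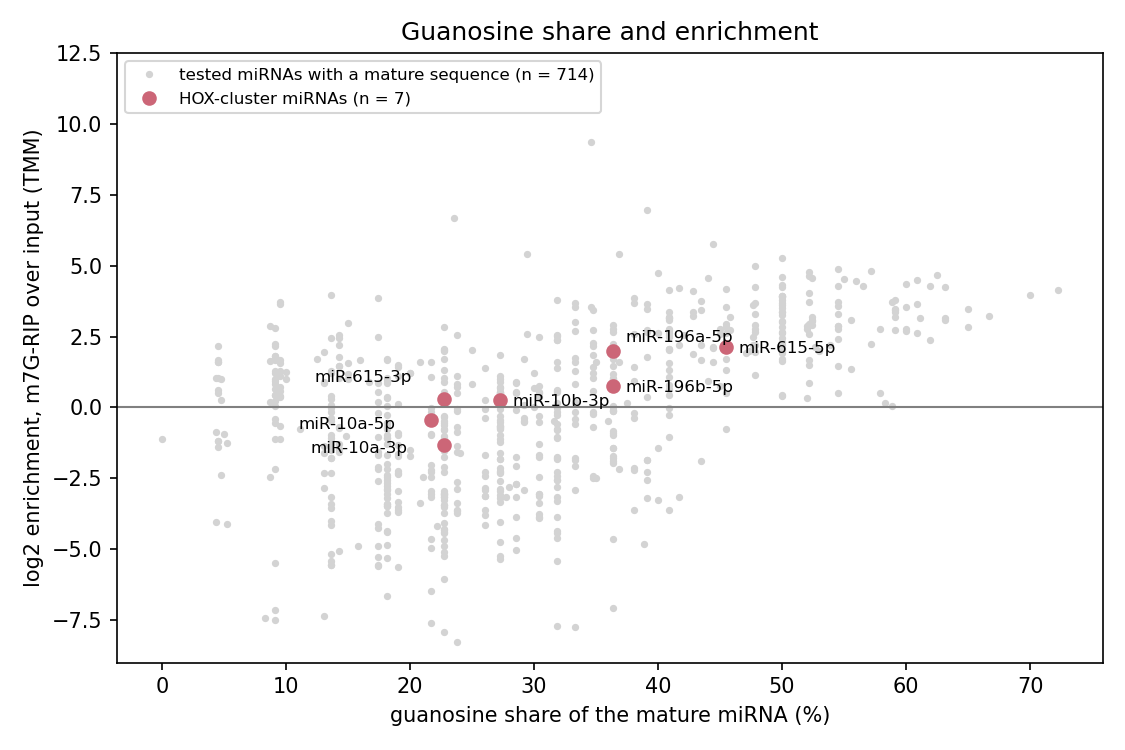
Guanosine share of the mature miRNA (%) against log2 enrichment of m7G-RIP over input under TMM scaling, 1 grey point per tested miRNA with a sequence (n = 714) and red points for 7 HOX-cluster strands. miR-615-5p and miR-196a-5p sit to the upper right, and miR-10a-5p and miR-10a-3p sit below 0 at low guanosine shares.

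In the precursor, the miR-615 hairpin stood apart from the other 5. A search for 4 runs of at least 3 guanosines with 1 to 7 bases between runs, a pattern that can fold into a G-quadruplex, found 1 match on its strand at chr12:54033953-54033971, shown with guanosines in capitals.
MIR615 match: GGGaGGGGcGGGaGGGGGG
Its last 5 bases are the first 5 of miR-615-5p, the arm that was enriched, while miR-615-3p of the same hairpin was not called. Whether a match bears on enrichment was not tested. Of 537 hairpins of tested miRNAs 2.42% held such a match. With runs of at least 2 guanosines, 35.4% of the hairpins held a match, and of the 6 HOX-cluster hairpins only MIR615 did. A match describes letters and not a folded structure.

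Relatives of these families outside the HOX clusters varied too. miR-99, miR-100 and miR-125 are the wider kin of miR-10 by descent, and of 11 strands listed 8 were tested, with 3 enriched and 3 depleted and log2 values from -3.51 for miR-99a-5p to 3.19 for miR-125a-3p. miR-196 shares the 7 bases AGGUAGU with the start of most let-7 strands, at positions 2 to 8 in miR-196a-5p and 3 to 9 in let-7a-5p, so that the seeds are offset by 1 base. On the given strand these bases were found in 11 of the 714 tested miRNAs with a sequence (1.54%), of which 8 were strands of the let-7 family with miR-98 and 2 were miR-196. The log2 enrichment of these 11 had a median of 0.76 and ran from -0.15 to 2.93. Of 9 listed let-7 strands 7 were enriched and 0 depleted, with a median log2 enrichment of 1.00. The highest of the 9, let-7e-5p at 3.16, does not hold the 7 bases. let-7g-5p stood at -0.15 (standard error 0.17) and let-7i-5p at -0.0014 (standard error 0.16). Over all 800 tested miRNAs 40.1% were enriched and 38.1% depleted. Whether the shared bases bear on enrichment was not tested.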

How the data were processed

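Small RNA libraries of 3 input and 3 m7G-RIP samples of Caco-2 RNA were analysed. The deposited file holds unnormalized counts of reads for each mature miRNA, which the authors made by trimming with Trimmomatic, mapping to GRCh38 and summarising on miRBase annotation with featureCounts. The methods name STAR, with reads allowed at several loci, while the submitters' processing notes list Bowtie2. Groups were taken from the sample titles.

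Log2 enrichment was estimated with edgeR 4.0.16 (R 4.3.3) by the quasi-likelihood test on all 6 libraries, with TMM factors, filterByExpr (minimum count 10, minimum total 15) and Benjamini-Hochberg adjustment over all 800 tested miRNAs, with calls where the adjusted p was below 0.05. Standard errors are the absolute log2 value divided by the square root of F. Arm ratios, with 0.5 added to each count, were fitted over 194 hairpins with limma 3.58.1. Ratios between miRNAs were compared with an exact permutation test. DESeq2 1.42.0 was an alternative. The scripts were tested on simulated data. Sequences and hairpins are from RefSeq (GRCh38.p14), annotation from GENCODE release 44. Python 3.11.15 and matplotlib 3.10.9 were used for sequences and plots. The labels give equal replicate numbers but no shared RNA, and the pairs' deviations did not correlate. All replicates of a group differed by more than sampling noise (chi-square of at least 17.5 for each degree of freedom).

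The members were taken by name and place in the genome. Earlier results of these data were known when the members, lists and tests were chosen. Named are the HOX-cluster miRNAs, fixed lists of relatives and markers, and, for miR-10a-5p, miR-196a-5p and miR-615-5p, the 3 miRNAs nearest in centred log2 CPM. Alternatives were other scalings, filters, added counts, the replicate block and leaving out each library.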

Additional observations from a re-analysis of the deposited data

How the results depend on the processing

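The counts of enriched and depleted HOX-cluster miRNAs, 3 and 3, became 7 and 0 when scaled by total counts, and 5 and 1 by upper-quartile factors, and were 3 enriched and between 1 and 3 depleted with each library left out, the lowest without input replicate 3. Over all tested miRNAs, 321 enriched and 305 depleted, the depleted were 198 with total counts, and with at least 10 counts in every library, where 426 were tested, 182 and 175 were called. With each library left out these counts lay between 268 and 341 and between 235 and 377. The share of enriched among all calls, 51.3%, was 69.1% and 64.8% under total counts and upper-quartile factors. Values that changed sign were those of miR-10a-5p (0.62 with total counts, 0.37 with upper-quartile factors), miR-10b-5p (0.52 and 0.28), miR-615-3p (-0.061 with RLE factors, -0.061 with the DESeq2 test, -0.014 with no filter and -0.028 to 0.45 with each library left out) and miR-10b-3p (-0.072, -0.076 and -0.040 in the same order). Under the 2 scalings named for the miR-10 5p arms the median of all tested miRNAs moved up by 1.09 and 0.82. With RLE factors, the DESeq2 test and no filter the median shift was -0.34, -0.34 and -0.31. The cause of the sign changes was not tested. Without a filter miR-196b-5p, at 0.45, missed the threshold. Of 104 values of single strands under other settings, 83 kept direction and side of the threshold. With the replicate block the counts were 3 and 3 among HOX-cluster miRNAs and 296 and 295 over all. Same-numbered libraries had correlations of -0.030, -0.039 and 0.071 in their deviations from the group means. No pairing by number was visible, but shared RNA can be hidden by noise between libraries, so the correlations cannot exclude it. The arm ratios kept their direction and side of the threshold with 1 added to each count and with each library left out. Under the same changes the ratios between miRNAs, whose test cannot reach the threshold, kept their direction. With each library left out the arms gave 0.71 to 1.00 for miR-10a, -1.07 to -0.52 for miR-10b and 1.75 to 1.92 for miR-615. The ratio of miR-10a-5p over miR-10b-5p gave 0.087 to 0.11 and that of miR-196a-5p over miR-196b-5p 1.18 to 1.30. The depth of m7G-RIP limits miR-10b-3p most, with 22 to 26 counts per library, then miR-10a-3p and miR-615-5p, with 48 to 137.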

Other observations

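Other miRNAs are annotated between the outermost HOX genes of these clusters. miR-7704, in the HOXD cluster at chr2:176188843-176188901, where its hairpin overlaps exons of HOXD1 and, on the opposite strand, of HAGLR, had 102, 88 and 79 counts in the input and 37, 57 and 28 in m7G-RIP. Its 19 bases hold 11 guanosines (57.9%).
miR-7704: cGGGGucGGcGGcGacGuG
The capitals mark the guanosines. Its log2 enrichment was 0.52, with a 95% confidence interval from -0.15 to 1.18 (edgeR adjusted p = 0.137). The groups did not overlap, at 6.89 to 8.70 CPM in the input and 8.98 to 12.8 CPM in m7G-RIP. Of all tested miRNAs 41.4% were likewise higher in m7G-RIP without overlap. The passenger strand miR-196a-3p had 12, 4 and 10 counts in the input and 0 in every m7G-RIP library, too few in all for the test. miR-3185 had no count.

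The tested miRNAs outside the HOX clusters whose levels over the 6 libraries ran most like those of miR-10a-5p were miR-100-5p, miR-28-5p and miR-7974, with root-mean-square differences in centred log2 CPM of 0.093 to 0.102. For miR-196a-5p they were let-7a-5p, miR-1304-5p and miR-183-5p (0.152 to 0.159), and for miR-615-5p they were miR-1306-3p, miR-1914-5p and miR-4667-5p (0.190 to 0.252). With 2 groups of libraries this likeness is mostly a like log2 enrichment, which was 1.71 for let-7a-5p against 2.01 for miR-196a-5p. The 3 named for miR-615-5p (2.14) had 2.11, 1.72 and 3.15, in the order given. The last of them, miR-4667-5p, was thus less alike, and its input mean of 0.438 CPM was near the floor.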
